A study of Mus musculus with 89 samples.

Results

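The proteasome subunit genes of mouse lung were followed across exposure to 4 copper oxide nanomaterials with and without allergic challenge. Members were all genes on the array whose symbol starts with Psma, Psmb, Psmc or Psmd followed by a number. The rule found 40 genes, measured by 62 probes, among the 22911 genes matched on the array. By their known roles, 39 of the 40 are proteasome genes. The exception, Psmc3ip, carries a similar symbol but encodes a partner of the meiotic recombinases and is no subunit, so it was kept and is given apart.

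All samples were lung tissue from BALB/c mice, female and 6-8 weeks old, and all mice had been sensitised to ovalbumin (OVA) with Alum. Control mice were then challenged with PBS or with OVA and received no nanomaterial. The other mice received core CuO, carboxylated CuO (CuO COOH), methylaminated CuO (CuO NH3) or PEGylated CuO (CuO PEG) at 2.5, 10 or 40 μg/mouse by oropharyngeal aspiration, with PBS or OVA, on 4 consecutive days, and lungs were taken 24 h after the last dose. The 89 samples, each a pool of 2 RNA samples on 1 dye of a 2-colour array, formed 26 groups: 7 PBS controls, 8 OVA controls, 4 samples each of CuO NH3 and CuO PEG at 10 μg/mouse with PBS, and 3 in every other group. As every mouse had been sensitised, no group stands for a lung without immunisation.

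The proteasome degrades proteins tagged with ubiquitin. Its 20S core is a barrel of alpha rings, which gate the entry, and beta rings, in which Psmb5, Psmb6 and Psmb7 carry the proteolytic sites. The 19S cap holds a ring of ATPases (Psmc genes) that unfolds the substrate and non-ATPase subunits (Psmd genes) that bind ubiquitin and remove it. In the immunoproteasome, Psmb8, Psmb9 and Psmb10 take the places of Psmb5, Psmb6 and Psmb7 in newly made cores. Immunoproteasome genes are induced by interferon-γ, are high in lymphocytes and other haematopoietic cells, and favour peptides that fit MHC class I molecules, whereas the constitutive subunit genes are known to be induced together when proteasome capacity or antioxidant defence is stressed.

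**Figure D1:**
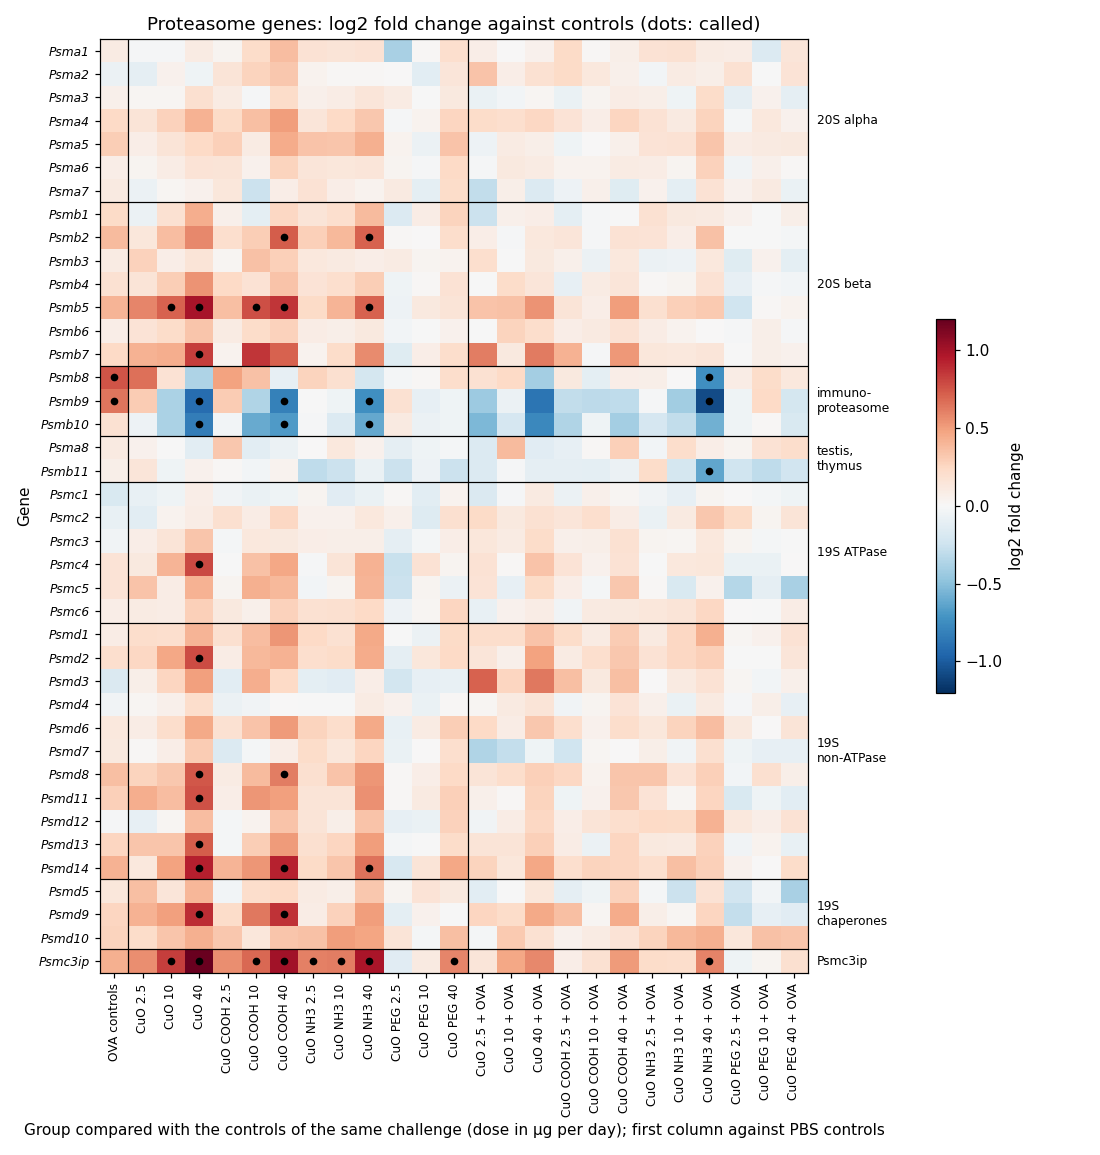
Log2 fold change of the 40 genes (rows, by role) in each exposed group against the controls of the same challenge (columns, doses in μg per day), the first column being OVA controls against PBS controls. Dots mark called genes, whose adjusted p was under 0.05 with a log2 change of over 0.58 in either direction. At 40 μg/mouse with PBS, most constitutive rows are above 0 (30 of 31 in CuO; under 75th percentile scaling 22 of the 31 exceeded the median gene) and the rows of Psmb9 and Psmb10 are below 0 in CuO, CuO COOH and CuO NH3.

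The promoters of 3 genes named in the results below are shown as examples, which were picked and not taken by a rule. Their windows hold the core of a site of a regulator known for proteasome or interferon-related genes. Sequences are from RefSeq (build GRCm38.p6), 5′ to 3′ on the strand of the gene. The capitals mark TGACNNNGC, a core of the antioxidant response element, in Psmb5 and Psmd9, and TTCNNNGAA, a core of STAT sites, in Psmb8. Other genes named below hold the same cores and are not shown, as Psmb6 does for TGACNNNGC and Psmd2 for TTCNNNGAA. Whether a core goes with a change of its gene was not tested.
Psmb5, chr14:54617946-54618245, minus strand: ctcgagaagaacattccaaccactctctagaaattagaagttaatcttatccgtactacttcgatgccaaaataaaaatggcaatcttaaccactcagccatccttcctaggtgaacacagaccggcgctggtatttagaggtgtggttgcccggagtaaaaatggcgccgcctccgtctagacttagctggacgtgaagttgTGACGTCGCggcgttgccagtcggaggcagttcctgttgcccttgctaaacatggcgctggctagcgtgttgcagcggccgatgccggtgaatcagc
Psmd9, chr5:123227940-123228239, plus strand: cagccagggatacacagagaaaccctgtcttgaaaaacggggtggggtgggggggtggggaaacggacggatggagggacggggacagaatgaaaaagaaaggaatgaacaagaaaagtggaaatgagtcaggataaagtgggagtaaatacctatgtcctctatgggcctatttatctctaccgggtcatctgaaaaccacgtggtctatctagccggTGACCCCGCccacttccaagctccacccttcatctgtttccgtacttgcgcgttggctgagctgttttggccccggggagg
Psmb8, chr17:34197945-34198244, plus strand: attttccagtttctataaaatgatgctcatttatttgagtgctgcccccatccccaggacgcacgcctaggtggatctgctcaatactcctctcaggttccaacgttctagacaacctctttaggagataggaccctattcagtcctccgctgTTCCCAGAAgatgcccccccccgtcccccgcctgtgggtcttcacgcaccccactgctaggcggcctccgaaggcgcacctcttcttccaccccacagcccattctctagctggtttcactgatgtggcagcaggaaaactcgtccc

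The match began 47 bases before the start site in Psmb5, 31 in Psmd9 and 97 in Psmb8. Each motif was searched on both strands in the 32851 promoter windows of the table, which hold 33 of the 40 genes. TGACNNNGC was found in 12.4% of all windows and in 5 of these genes (Psmb5, Psmb6, Psmc6, Psmd9 and Psmd12). Its second form TGAGNNNGC, which differs in 1 letter and so marks other positions, was found in 17.6% of all windows and in 12 of these genes. TTCNNNGAA stood in 8.3% of all windows and in Psmb8 and Psmd2, an IRF motif (GAAA repeated after a spacer of 2 bases) in 3.44% and in 3 of these genes, and CCAAT in 37.4% and in 14 of these genes. A match describes the sequence and does not show that a factor binds there. Psma8, Psmb1, Psmb2, Psmb7, Psmc3, Psmd3 and Psmd7 had no promoter window there and could not be searched.

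Between 46.7% and 68.8% of spots were well above background in each of the 89 samples. Of the 40 genes, 38 were well above background in all samples, and no spot of a member probe was saturated or marked as an outlier. The exceptions are both known for tissue-restricted cores, the testis gene Psma8 (well above background in 84 of 89 samples) and the thymus gene Psmb11 (3 of 89 samples), so values of Psmb11 are background readings. Levels are given per sample as log2 intensity with dye, slide and array position removed, and levels of different genes are not compared. The share of all genes whose groups do not overlap was not counted. A lack of overlap thus describes the samples of a gene, was also seen in genes that were not called, and is no test. Fold changes against controls come from a separate fit with dye and array as terms, so that they do not equal the difference of the printed levels. A gene was called higher or lower where its adjusted p was under 0.05 (limma, Benjamini-Hochberg over 22851 genes) and its log2 fold change exceeded 0.58 in size, the rule of the study, and only called genes are said to have risen or fallen. In bulk lung tissue, fewer cells of a type and less RNA per cell cannot be told apart.

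In mice exposed to core CuO at 40 μg/mouse with PBS, 10 of the 40 genes rose and 2 fell against PBS controls, where 7.81% of all genes rose and 6.23% fell. Of the 31 constitutive core and cap subunit genes 8 rose, and the fallen genes were the immunoproteasome genes Psmb9 and Psmb10, a share near that of all genes. None of these calls was made without CuO 40 sample 2. With the adjusted p alone, 15 of the 40 genes were higher, against 9.30% of all genes. The median log2 fold change was 0.38 over the 40 genes and 0.0088 over all genes. Of the 31 constitutive genes, 30 lay above the median gene, and 22 did when samples were scaled by their 75th percentile, which moved the median gene itself to 0.40.

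Psmb5, the constitutive chymotrypsin-like subunit, had log2 levels from 11.31 to 11.56 in PBS controls (median 11.37, n = 7). In CuO 40 its levels were 12.05, 12.33 and 12.11. All 3 samples lay above all 7 controls, and the log2 fold change was 0.99 ± 0.16 (SE, adjusted p = 0.0001189). Psmb8, its counterpart in the immunoproteasome, had 11.42 to 11.70 in PBS controls (median 11.57) and 11.42, 11.40 and 11.24 in CuO 40. Here 2 of 3 samples lay below all controls, and Psmb8 did not pass the test (log2 fold change -0.37 ± 0.26, adjusted p = 0.44).

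Psmb9, an immunoproteasome subunit encoded beside Psmb8 in the MHC region, ranged from 12.03 to 12.28 in PBS controls (median 12.18) and was 11.56, 11.47 and 11.47 in CuO 40. All 3 exposed samples lay below all controls, and the log2 fold change was -0.92 ± 0.26 (adjusted p = 0.0139). Its constitutive counterpart Psmb6, the caspase-like subunit, ranged from 13.23 to 13.39 in PBS controls (median 13.28) and was 13.54, 13.56 and 13.48 in CuO 40. The Psmb6 groups did not overlap either, yet the gene did not pass the test (0.33 ± 0.15, adjusted p = 0.17).

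Psmb10, the immunoproteasome form of the trypsin-like subunit, ranged from 13.89 to 14.08 in PBS controls (median 13.97) and was 13.20, 13.32 and 13.36 in CuO 40. It fell with a log2 fold change of -0.83 ± 0.21 (adjusted p = 0.0080). Psmb7, the constitutive form, ranged from 10.71 to 11.10 (median 10.98) and was 11.57, 11.78 and 11.45 in CuO 40. It rose by 0.83 ± 0.28 on the log2 scale (adjusted p = 0.0423), and neither gene's exposed samples overlapped the controls. The call of Psmb7 was lost in 6 of 10 omissions of a single sample (without CuO 40 samples 1 or 2 or PBS samples 1, 2, 3 or 6), with adjusted p up to 0.23.

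The difference between each constitutive gene and its counterpart, set to 0 in PBS controls, describes the same shift within each sample. In CuO 40 it was 0.98 ± 0.16 (SD, n = 3) for Psmb5 minus Psmb8, 0.92 ± 0.06 for Psmb6 minus Psmb9 and 1.33 ± 0.19 for Psmb7 minus Psmb10. Among PBS controls the same differences had SDs of 0.10, 0.09 and 0.19 (n = 7). At 2.5 μg/mouse of core CuO they were -0.02 ± 0.14, 0.06 ± 0.11 and 0.45 ± 0.13, so that only the pair of Psmb7 and Psmb10 lay outside the range of the controls in all 3 samples.

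**Figure D2:**
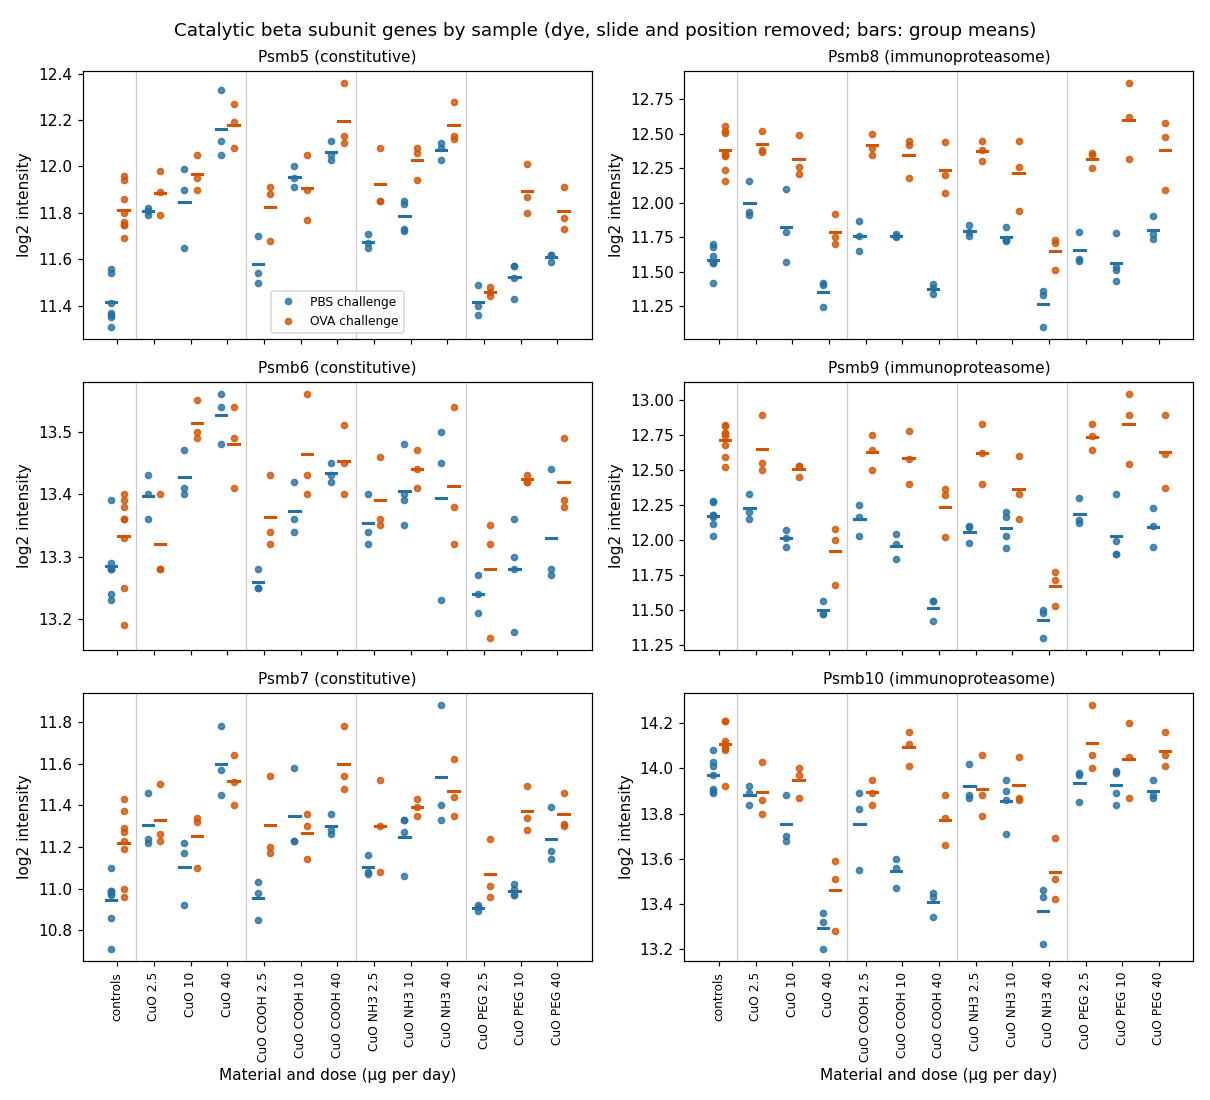
Log2 intensity of the 3 constitutive and the 3 immunoproteasome catalytic genes in every sample (dye, slide and position removed), by material and dose in μg per day, with points for samples, colours for the challenge and bars for group means. At 40 μg/mouse with PBS, samples of CuO, CuO COOH and CuO NH3 lie below the PBS controls for Psmb9 and Psmb10 and above them for Psmb5, and samples of CuO PEG do not lie apart from the controls for Psmb9.

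Of the 7 alpha subunit genes none was called in CuO 40, with a median log2 fold change of 0.17. Psma4, a subunit of the alpha ring, had the largest change of this role. Its levels were 11.40 to 11.58 in PBS controls (median 11.48) and 11.74, 11.95 and 11.84 in CuO 40. The groups did not overlap, and the log2 fold change of 0.42 ± 0.13 passed the adjusted p (0.0251) but not the fold threshold. Psma2 had the smallest change, with 13.63 to 13.80 in PBS controls (median 13.71) and 13.67, 13.65 and 13.70 in CuO 40, within the range of the controls (log2 fold change -0.06 ± 0.13).

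Of the 7 constitutive beta subunit genes, Psmb5 and Psmb7 rose, Psmb2 (0.58) and Psmb4 (0.54) passed the adjusted p alone, and the median was 0.54. The smallest change of this role was that of the structural subunit gene Psmb3 (0.16 ± 0.15, adjusted p = 0.59). Psmb3 had 13.33 to 13.46 in PBS controls (median 13.41) and 13.53, 13.60 and 13.52 in CuO 40, a shift of the levels in all 3 samples that the fit with array did not call. The tissue-restricted Psma8 and Psmb11 did not pass the test (-0.13 and 0.05).

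Of the 6 ATPase genes 1 rose, and the median was 0.31. Psmc4 encodes an ATPase of the base of the cap. It had 9.26 to 9.49 in PBS controls (median 9.36) and 9.81, 10.14 and 9.85 in CuO 40. The groups did not overlap, and the log2 fold change was 0.79 ± 0.19 (adjusted p = 0.0050). Psmc1, the member with the smallest change, had 14.14 to 14.31 (median 14.23) and 14.08, 14.32 and 14.19, which overlapped the controls (0.08 ± 0.16, adjusted p = 0.85).

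Of the 11 non-ATPase genes 5 rose, and the median was 0.50. Psmd14, the deubiquitinase of the lid, had 9.90 to 10.24 in PBS controls (median 10.00) and 10.48, 10.86 and 10.74 in CuO 40, above all controls. Its log2 fold change was 0.94 ± 0.21 (adjusted p = 0.0029). The other risen members were Psmd2 (0.79), a large scaffold subunit of the base, and Psmd11 (0.77), Psmd8 (0.74) and Psmd13 (0.73) of the lid, and each had all 3 samples above all controls. The smallest change was that of the ubiquitin receptor Psmd4 (12.20 to 12.32, median 12.25, in PBS controls and 12.29, 12.45 and 12.39 in CuO 40), which overlapped the controls and did not pass the test (0.21 ± 0.12, adjusted p = 0.30).

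Psmd9, a chaperone that helps to assemble the ATPase ring, rose. It had 8.53 to 9.0 in PBS controls (median 8.73) and 9.38, 9.64 and 9.34 in CuO 40, with a log2 fold change of 0.89 ± 0.18 (adjusted p = 0.0013). The other base chaperones Psmd10 (0.43) and Psmd5 (0.40) did not pass the test. Psmd5 had 9.33 to 9.71 in PBS controls (median 9.53) and 9.74, 9.94 and 9.91 in CuO 40, and its adjusted p of 0.0506 lay just past the threshold. Psmc3ip, the gene outside the proteasome, had 7.95 to 8.41 (median 8.09) and 8.94, 9.24 and 9.03, and rose most of all 40 genes (1.19 ± 0.18, adjusted p = 4.789e-05).

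Samples 1 and 3 of CuO 40 shared their arrays with CuO 10 samples, and in the fit with array these calls leaned on single libraries. Without CuO 40 sample 2, 0 of the 40 genes were called higher (limma), and without PBS sample 3 it was 6. With dye, slide and position as terms in place of array, 9 genes were called higher, 3 without CuO 40 sample 2, and Psmb5 (0.75), Psmb9 (-0.67) and Psmb10 (-0.67) kept their calls. Psmb9 and Psmb10 were not called without CuO 40 sample 2 or without PBS sample 3 in the fit with array (adjusted p of Psmb9 0.48 and 0.16), nor under 75th percentile scaling (log2 fold change -0.88 and -0.36), which called 11 members higher and 0 lower. Of the 17 members with several probes, probes of Psmc3 and Psmd4 differed in sign in CuO 40, and those of Psmd3 differed most, by 0.98.

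The carboxylated, methylaminated and PEGylated materials at 40 μg/mouse were set against the same PBS controls. With CuO COOH 6 of 40 genes rose and 2 fell, where 5.96% of all genes rose and 4.31% fell, and with the adjusted p alone 10 were higher (6.97% of all genes). With CuO NH3 4 rose and 2 fell, where 7.35% of all genes rose and 5.87% fell, and with the adjusted p alone 20 were higher (13.4% of all genes). The counts of fallen genes in both, and of risen genes in CuO NH3, lay near the shares of all genes. With CuO PEG 1 rose and 0 fell, where 1.67% of all genes rose and 0.512% fell, and no other gene was higher with the adjusted p alone (1.87% of all genes). The single gene in CuO PEG was Psmc3ip, so that no proteasome gene was called, while 5 genes were higher and 0 lower at an unadjusted p below 0.05 beside it. The constitutive genes were still shifted in CuO PEG, with 29 of 31 above 0 (48.4% of all genes) and a median of 0.21. Their median in each CuO PEG 40 sample lay between 0.11 and 0.17, against -0.03 to 0.03 in PBS controls. All these comparisons share the 7 PBS controls.

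Psmb5 was 12.03, 12.05 and 12.11 with CuO COOH and 12.08, 12.03 and 12.10 with CuO NH3, all above the PBS controls. It rose by 0.86 ± 0.16 (adjusted p = 0.0005545) and by 0.71 ± 0.11 (5.21e-05) on the log2 scale, and its call in CuO COOH was lost in 2 of 11 alternatives (down to 0.31). With CuO PEG Psmb5 was 11.59, 11.62 and 11.62, again above the highest control of 11.56, but did not pass the test (0.15 ± 0.13, adjusted p = 0.72). Psmd14 and Psmb2 were among the risen genes of both coated materials, with 0.92 and 0.73 in CuO COOH and 0.66 and 0.71 in CuO NH3.

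Psmb9 was 11.56, 11.56 and 11.42 with CuO COOH and 11.50, 11.30 and 11.48 with CuO NH3, all below the PBS controls. It fell in both, by 0.81 ± 0.25 (adjusted p = 0.0317) and by 0.73 ± 0.18 (adjusted p = 0.0037) on the log2 scale. Its call in CuO COOH was lost in 5 of 10 omissions of a single sample (any of the 3 CuO COOH 40 samples or PBS samples 1 or 3), with adjusted p up to 0.41, and that in CuO NH3 without CuO NH3 40 sample 1 or PBS sample 5 (adjusted p = 0.075). With CuO PEG it was 11.95, 12.10 and 12.23, which overlapped the controls (-0.05 ± 0.21, adjusted p = 0.96). Psmb10 was 13.45, 13.43 and 13.34 with CuO COOH, 13.43, 13.22 and 13.46 with CuO NH3, and 13.95, 13.87 and 13.88 with CuO PEG. It fell in the first 2 (-0.68 ± 0.21 and -0.61 ± 0.15, adjusted p = 0.0296 and 0.0036) and did not pass the test in CuO PEG (-0.05 ± 0.18). The call of Psmb10 in CuO COOH was lost without any of the 3 CuO COOH 40 samples or PBS sample 1 (-0.40, adjusted p = 0.70 without the last) and in 4 of 11 alternatives. Its call in CuO NH3 was lost without CuO NH3 40 sample 2 (-0.45) and in 4 of 11 alternatives. Psmb8 was not called in any of them (-0.10, -0.21 and 0.21). The falls of Psmb9 and Psmb10 were not called under 75th percentile scaling, where the difference of Psmb9 from the median gene was -1.23 in CuO COOH and -0.47 in CuO NH3. Without CuO NH3 40 sample 1 or PBS sample 5 the risen genes in CuO NH3 numbered 8, and without either of CuO PEG 40 samples 1 and 2 or of PBS samples 3 and 5 those in CuO PEG numbered 0.

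**Figure D3:**
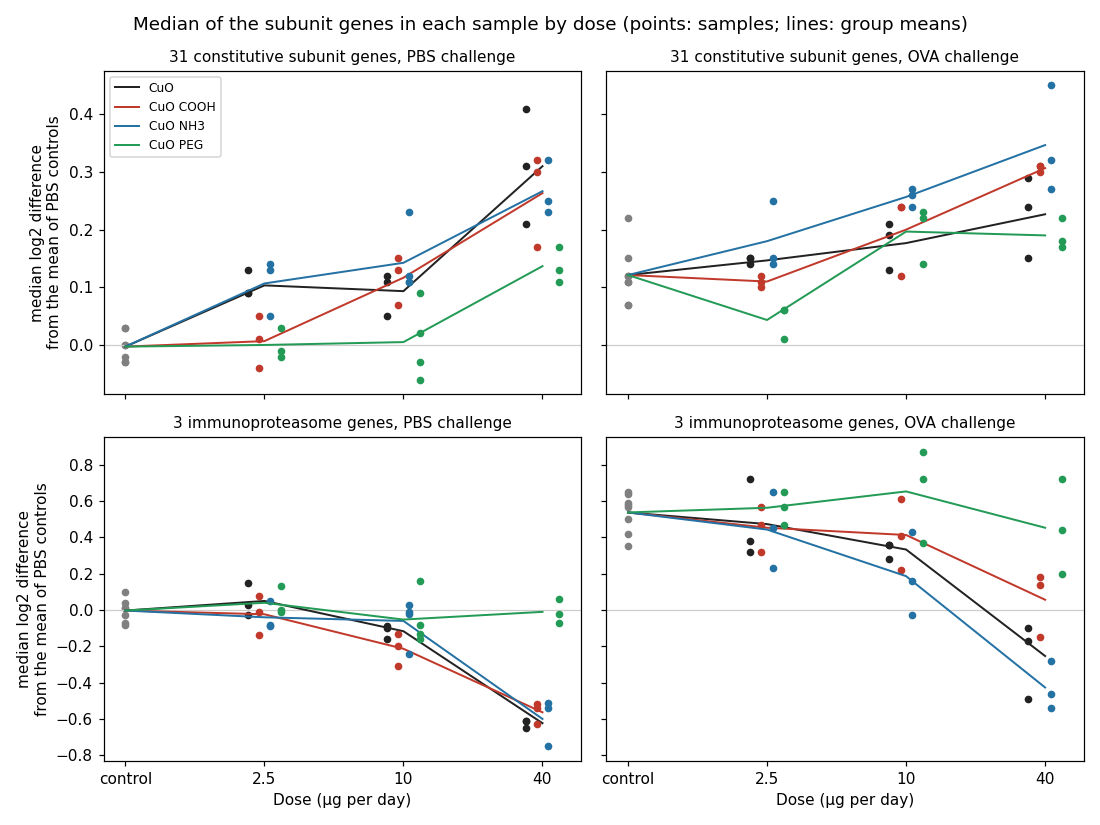
Median over the 31 constitutive subunit genes and over the 3 immunoproteasome genes in each sample, as a log2 difference from the mean of PBS controls (vertical axis), by dose in μg per day (horizontal axis), material (colours) and challenge. Points are samples and lines join group means. At 40 μg/mouse with PBS the immunoproteasome median is -0.62 in CuO, -0.56 in CuO COOH, -0.60 in CuO NH3 and -0.01 in CuO PEG, and OVA controls stand at 0.54.

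At 10 μg/mouse with PBS, Psmb5 and Psmc3ip rose with CuO (0.71 and 0.83) and with CuO COOH (0.77 and 0.69), where 3.57% and 3.61% of all genes were called in either direction. Psmb5 was 11.65, 11.90 and 11.99 with CuO and 11.91, 12.00 and 11.95 with CuO COOH. With CuO NH3 at 10 μg/mouse only Psmc3ip was called (0.61, with 3.37% of all genes called), and Psmb5 (0.41), Psmd10 (0.50) and Psmd8 (0.35) passed the adjusted p alone. With CuO PEG at 10 μg/mouse 0 of 40 genes were called by limma (0.429% of all genes), 1 higher and 1 lower at an unadjusted p below 0.05.

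At 2.5 μg/mouse with PBS, Psmc3ip with CuO NH3 was the single call (0.61, 0.937% of all genes). Limma called 0 genes with CuO (0.910% of all genes, 9 higher and 0 lower at an unadjusted p below 0.05), with CuO COOH (0.346%, 2 higher and 0 lower) and with CuO PEG (0% of all genes, 0 higher and 1 lower). For Psmb5 with CuO the adjusted p was 0.0502 at a log2 fold change of 0.58. The immunoproteasome median, as a difference from PBS controls, was 0.05 ± 0.09 (SD, n = 3) at 2.5, -0.12 ± 0.04 at 10 and -0.62 ± 0.02 at 40 μg/mouse of core CuO, against an SD of 0.07 among the 7 controls. The constitutive median was 0.10 ± 0.02, 0.09 ± 0.03 and 0.31 ± 0.10 at the same doses, against an SD of 0.03 among the controls.

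The step from 2.5 to 40 μg/mouse of the same material was tested in itself. Psmb9 fell by 1.22 ± 0.29 with CuO (adjusted p = 0.0162), where 4.18% of all genes were called. Its levels were 12.15 to 12.33 in CuO 2.5 and 11.47 to 11.56 in CuO 40, a smaller step than that of the fit with array. Psmb9 fell by 0.73 ± 0.18 with CuO NH3 (adjusted p = 0.0095), as Psmb10 did by 0.60 ± 0.15, where 7.15% of all genes were called. The counts, 1 of 40 genes with CuO and 2 of 40 with CuO NH3, did not exceed these shares. None of the 40 genes was called between doses under 75th percentile scaling. With CuO COOH 0 genes were called (0.871% of all genes), and 7 were higher and 2 lower at an unadjusted p below 0.05. With CuO PEG Psmc3ip rose by 0.73 ± 0.17 (4.35% of all genes). Under OVA, Psmb9 fell by 1.06 ± 0.23 with CuO NH3 (0.700% of all genes), and 0 genes were called with CuO (0.0963% of all genes, 0 at an unadjusted p below 0.05), CuO COOH (0.00875%, 2 higher) and CuO PEG (0.0131%, 0).

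Between OVA and PBS controls 2 of 40 genes rose, the immunoproteasome genes Psmb8 and Psmb9, and 0 fell, where 3.72% of all genes rose and 1.51% fell. The count lay near that share, and with the adjusted p alone 8 were higher (6.32% of all genes). Psmb8 ranged from 12.16 to 12.56 in the 8 OVA controls (median 12.36), above all PBS controls, and rose by 0.76 ± 0.16 (adjusted p = 0.0019). Psmb9 ranged from 12.52 to 12.82 (median 12.75), again without overlap, and rose by 0.64 ± 0.15 (adjusted p = 0.0065). With dye, slide and position as terms the value for Psmb9 was 0.54, under the fold threshold. Without PBS sample 2 or OVA sample 3 neither gene was called (adjusted p = 0.058 for Psmb8 and 0.16 for Psmb9), and Psmb5 (0.5828) was the 1 gene called.

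Psmb10 ranged from 13.92 to 14.21 in OVA controls (median 14.11), overlapped the PBS controls and did not pass the test (0.18 ± 0.13, adjusted p = 0.46). The 6 other genes that passed the adjusted p were Psmc3ip (0.43), Psmd14 (0.41), Psmb5 (0.41), Psmb2 (0.38), Psmd8 (0.36) and Psma4 (0.24), each below the fold threshold and named after their values were seen. Psmb5 ranged from 11.69 to 11.96 in OVA controls (median 11.78), above all PBS controls. The difference of Psmb5 minus Psmb8 stood at -0.40 ± 0.09 (SD, n = 8) and that of Psmb6 minus Psmb9 at -0.49 ± 0.06, both below all PBS controls. Psmb7 minus Psmb10 stood at 0.14 ± 0.23 and overlapped them.

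In OVA-challenged mice, 40 μg/mouse of the materials was compared with the 8 OVA controls, which these comparisons share. With CuO NH3 1 of 40 genes rose and 3 fell, where 3.97% of all genes were called. Psmb9 was 11.71, 11.77 and 11.53, below all OVA controls, and fell by 1.07 ± 0.19 (adjusted p = 0.0019). Psmb8 was 11.51, 11.73 and 11.71, also without overlap, and fell by 0.73 ± 0.20 (adjusted p = 0.0300). The call of Psmb8 was lost in 5 of 11 omissions of a single sample (any of the 3 exposed samples or OVA samples 5 or 8), with a log2 fold change of -0.51 and adjusted p = 0.31 without exposed sample 1, and in 3 of 11 alternatives (-0.29 with the replicate block). Psmb10 was 13.51, 13.69 and 13.42 and lay at the fold threshold (-0.58 ± 0.16, adjusted p = 0.0332), so that it was not called. The other called genes were Psmc3ip (0.60) and the background-level Psmb11 (-0.62). No member fell under 75th percentile scaling, where the value for Psmb9 was -0.86. Without CuO NH3 40 + OVA sample 1 or OVA sample 5, 1 member was called over the 4 materials in place of 4.

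With CuO under OVA limma called 0 of 40 genes (1.58% of all genes), with 10 higher and 2 lower at an unadjusted p below 0.05. The values nearest to a call were those of Psmb10 (13.28, 13.59 and 13.51; -0.78 ± 0.21, adjusted p = 0.0620) and Psmb9 (11.68, 12.08 and 12.00; -0.88 ± 0.25, adjusted p = 0.0836), each with all 3 samples below all OVA controls. With CuO COOH under OVA limma called 0 genes (3.80% of all genes), with 16 higher and 1 lower at an unadjusted p below 0.05, and Psmb5 (0.50), Psmc3ip (0.51), Psmd9 (0.45) and Psmd8 (0.33) passed the adjusted p alone. With CuO PEG under OVA limma called 0 genes (0.639% of all genes), with 1 higher and 2 lower at an unadjusted p below 0.05, and Psmb9 was 12.89, 12.37 and 12.61, with 1 sample above, 1 below and 1 within the range of the OVA controls.

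Relative to PBS controls, the immunoproteasome median stood at 0.54 ± 0.11 (SD, n = 8) in OVA controls, -0.25 ± 0.21 in CuO 40 with OVA, 0.06 ± 0.18 in CuO COOH 40 with OVA, -0.43 ± 0.13 in CuO NH3 40 with OVA and 0.45 ± 0.26 in CuO PEG 40 with OVA (n = 3 each). The constitutive median in these groups was 0.12 ± 0.05, 0.23 ± 0.07, 0.31 ± 0.00, 0.35 ± 0.09 and 0.19 ± 0.03. Under 75th percentile scaling the median gene of CuO 40 with OVA stood at 0.50 against OVA controls, and only 1 of the 31 constitutive genes lay above it. In the fit with array 29 of 31 lay above the median gene, with the brightest probe 23 and with array as a random block 15. The lower doses with OVA gave 0 calls by limma among the 40 genes. At 2.5 μg/mouse 0%, 0.0350%, 0.993% and 0.00438% of all genes were called with CuO, CuO COOH, CuO NH3 and CuO PEG, and at 10 μg/mouse 0.267%, 0.639%, 2.50% and 0%. At an unadjusted p below 0.05, from 0 to 5 members were higher and from 0 to 2 lower in these 8 comparisons.

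Whether an exposure acted differently under OVA and under PBS was tested as the difference of the 2 effects, and limma called 0 of 40 genes with each material at 40 μg/mouse. Of all genes 1.11% were called with CuO, 1.05% with CuO COOH, 1.59% with CuO NH3 and 0% with CuO PEG. At an unadjusted p below 0.05 the effect was lower under OVA for 9 members with CuO, 3 with CuO COOH, 3 with CuO NH3 and 1 with CuO PEG, and higher for 0. The largest differences with CuO were those of Psmc3ip (-0.62 ± 0.20, adjusted p = 0.19), Psmd11 (-0.50) and Psmd8 (-0.46). For Psmb9 the difference was 0.04 with CuO (95% interval from -0.55 to 0.62), 0.50 with CuO COOH (from -0.10 to 1.11), where it was the highest of the 40 genes, -0.34 with CuO NH3 (from -0.86 to 0.18) and -0.16 with CuO PEG (from -0.78 to 0.47).

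Each modified material was set against core CuO, dose by dose and challenge by challenge, in 18 pairs of groups, with dye, slide and position as terms, and each pair was adjusted over all genes. CuO and CuO COOH lay on slides 1 to 3 and CuO NH3 and CuO PEG on slides 4 to 6, so that the comparisons with CuO NH3 and CuO PEG rest on the controls to tell slide from material. PEGylated CuO carries polyethylene glycol on its surface, CuO COOH carboxyl and CuO NH3 methylammonium groups. The study dosed by mass of the whole material and measured less copper in the coated materials, least in CuO PEG. Copper dose thus differed along with the coating, and the part of either was not tested. At 40 μg/mouse with PBS, CuO PEG had 2 genes higher and 1 lower than core CuO, where 4.38% of all genes were called, and 3 higher and 12 lower with the adjusted p alone.

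Psmb10 was 0.61 ± 0.12 higher in CuO PEG 40 than in CuO 40 on the log2 scale (adjusted p = 0.0002772) and Psmb9 0.59 ± 0.16 higher (adjusted p = 0.0089). For both genes all 3 CuO PEG samples lay above all 3 CuO samples. The call of Psmb9 was lost in 3 of 6 omissions of a single sample (without CuO 40 samples 2 or 3 or CuO PEG 40 sample 3) and with dye and array as terms (adjusted p = 0.13). That of Psmb10 was lost in 2 of 6 (without sample 1 of either), with dye and array (adjusted p = 0.099) and with 75th percentile scaling (0.34, adjusted p = 0.28). Psmd9 was 0.62 lower (-0.62 ± 0.13, adjusted p = 0.0006495), with 8.85, 8.87 and 8.80 in CuO PEG 40. The next lowest values were those of Psmc3ip (-0.58) and Psmb5 (-0.55 ± 0.11, adjusted p = 0.0003355), both just under the fold threshold. Psmb5 was -0.10 with array as a random block and -0.07 with the replicate block (adjusted p = 0.72 and 0.71), and was called with dye and array (-0.84). The constitutive genes had a median of -0.18 and 27 of 31 lay below 0, whereas with array as a random block or with a replicate block their median was 0.08, and under 75th percentile scaling 14 of 31 lay above the median gene. Psmb8, Psmb9 and Psmb10 were higher in CuO PEG than in core CuO under each of these.

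With OVA, CuO PEG 40 again had Psmb9 (0.70 ± 0.17, adjusted p = 0.0439) and Psmb10 (0.62 ± 0.13, adjusted p = 0.0134) higher than CuO 40 and no gene lower, where 0.394% of all genes were called. The call of Psmb9 was lost in 4 of 6 omissions of a single sample (without sample 1 or 3 of either, adjusted p up to 0.39) and that of Psmb10 in 2 of 6 (without sample 1 of either). Both were lost with 75th percentile scaling (adjusted p = 0.062 and 0.18) and with dye and array (adjusted p = 0.89 for both), where 0 genes of the whole array were called higher and 1 lower. Psmb5 was not called in this pair (-0.38, 95% interval from -0.61 to -0.14, adjusted p = 0.14). At the lower doses no gene was called between CuO PEG and core CuO, with Psmb5 (-0.39) and Psmc3ip (-0.47) passing the adjusted p alone at 2.5 and Psmc3ip (-0.49) at 10 μg/mouse with PBS.

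Between CuO COOH and core CuO, and between CuO NH3 and core CuO, limma called 0 of 40 genes at 40 μg/mouse with PBS, where 0.109% and 0.123% of all genes were called, with 6 and 2 members lower and 0 higher at an unadjusted p below 0.05. For Psmb9 the difference from core CuO was 0.01 with CuO COOH (95% interval from -0.25 to 0.28) and -0.08 with CuO NH3 (from -0.40 to 0.25). For Psmb5 it was -0.10 (from -0.28 to 0.08) and -0.10 (from -0.32 to 0.12). With OVA 0 genes were called with CuO COOH (0.319% of all genes, 5 higher at an unadjusted p below 0.05) and CuO NH3 (0.372%, 2 higher). There the largest difference with CuO COOH was that of Psmb8 (0.45, 95% interval from 0.16 to 0.73, adjusted p = 0.13). The lowest limma adjusted p of any member with OVA was 0.12 with CuO COOH and 0.067 with CuO NH3, and with PBS it was 0.079 and 0.29.

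**Figure D4:**
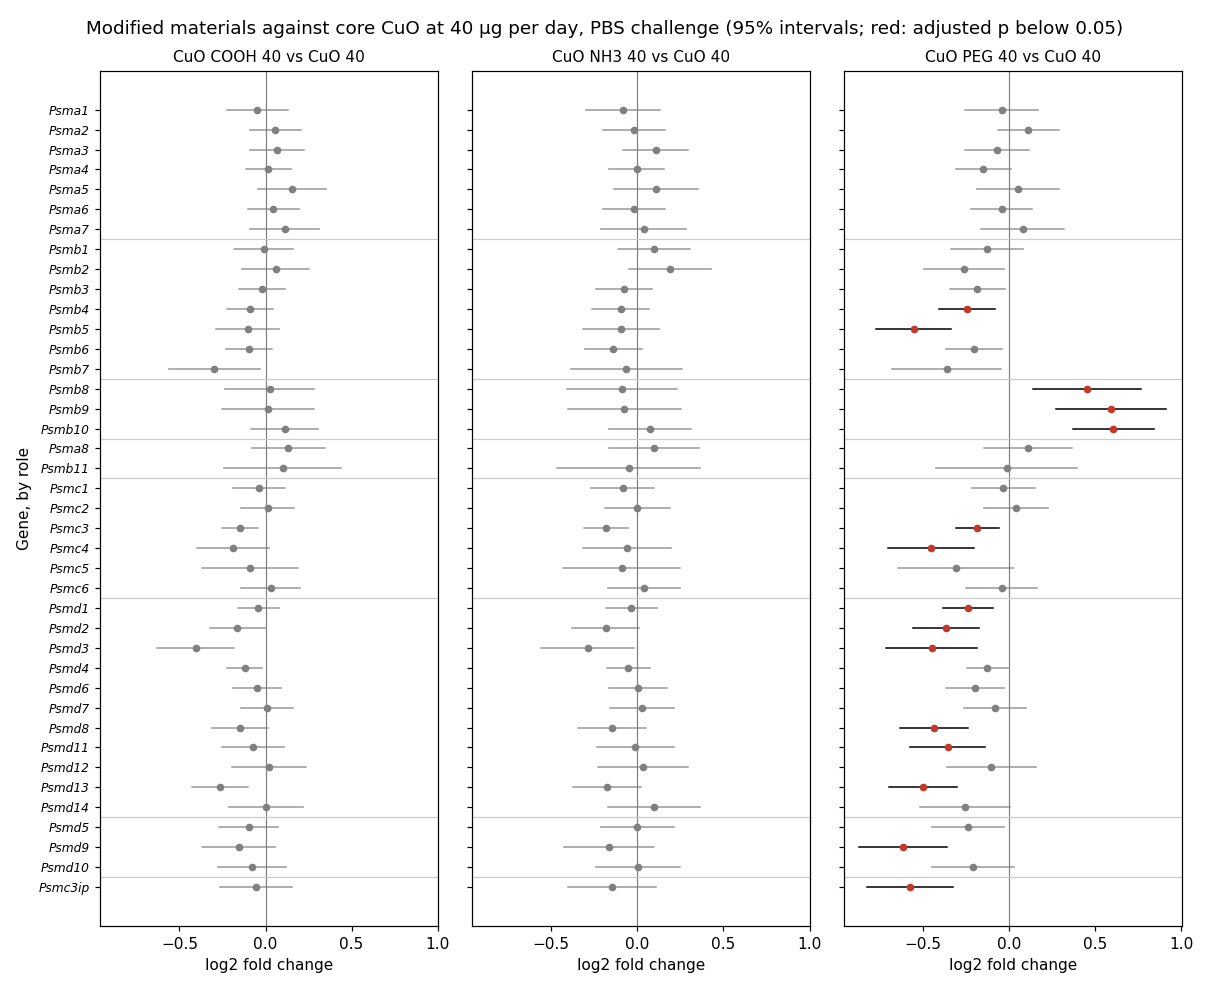
Log2 fold change of each gene (rows, by role) between a modified material and core CuO at 40 μg per day with PBS (horizontal axis), with 95% intervals from the fit with dye, slide and position; red marks an adjusted p below 0.05. Psmb8, Psmb9 and Psmb10 lie to the right of 0 in CuO PEG, whose constitutive genes lie mostly to the left, a side that turns with array as a random block; no gene is red in CuO COOH or CuO NH3.

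Other genes of the pathway were taken as a list of 31 activators, assembly chaperones, ubiquitin shuttles, deubiquitinases and ubiquitin genes, 30 of which were measured. In CuO 40 against PBS controls 3 of 30 rose and 0 fell, where 7.81% of all genes rose and 6.23% fell. The count of risen genes lay near that share. With the adjusted p alone 7 were higher (9.30% of all genes), and the median was 0.22 against 0.0088 over all genes. The lowest values were those of Ngly1 (-0.31), Sem1 (-0.25) and Sqstm1 (-0.21). The risen genes were the shuttle Ubqln1 (0.80 ± 0.12), the deubiquitinase Uchl5 of the cap (0.73 ± 0.20) and the core chaperone Psmg2 (0.66 ± 0.20). Ubqln1 and Uchl5 were also the 2 risen genes in CuO COOH 40 (0.72 and 0.67), a count near the 5.96% of all genes that rose there. In CuO NH3 40 limma called 0 of the list, and 9 genes were higher (13.4% of all genes) and 1 lower with the adjusted p alone. In CuO PEG 40, limma called 0, also with the adjusted p alone, and 2 were higher and 0 lower at an unadjusted p below 0.05. In OVA controls limma called 0 (5 higher and 1 lower at an unadjusted p below 0.05), with Uchl5 (0.42) and Ubqln1 (0.26) higher and the ubiquitin adaptor Sqstm1 (-0.38) lower with the adjusted p alone.

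A list of 12 genes of MHC class I peptide supply and interferon-γ response was measured whole. In OVA controls 4 of 12 rose, the chemokines Cxcl10 (2.99) and Cxcl9 (2.65), interferon-γ itself (Ifng, 1.36) and the MHC class I transactivator Nlrc5 (0.62), and the median was 0.57. In CuO 40 the chemokine Cxcl10 rose (2.75 ± 0.95), the class I light chain B2m fell (-1.21 ± 0.29), and the median was -0.34. In CuO NH3 40 with OVA 6 of 12 fell against OVA controls and none rose, with a median of -0.71, and these included B2m (-1.197), Cxcl9 (-1.68) and Ifng (-1.34). In CuO PEG 40 limma called 0 of 12 under PBS (3 higher at an unadjusted p below 0.05) and 0 under OVA (1 lower). In CuO NH3 40 with PBS, B2m (-1.03) and Irf1 (-0.77), a transcription factor of the interferon response, fell and Cxcl10 (2.73) rose, and in CuO COOH 40 Cxcl10 (3.43) alone was called.

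Markers of other cells were measured in the same comparisons. Of 8 T cell markers 4 fell in each of CuO 40, CuO COOH 40 and CuO NH3 40 (in CuO 40 Cd3d with a log2 fold change of -1.96 and Cd5 with -1.68), 3 rose in OVA controls and limma called 0 in CuO PEG 40 (1 higher at an unadjusted p below 0.05). Their summed intensity ranged from 2407 to 3529 in PBS controls, from 1366 to 1692 in CuO 40, from 1575 to 2012 in CuO COOH 40, from 1638 to 1905 in CuO NH3 40, from 2876 to 3649 in CuO PEG 40 and from 3992 to 5007 in OVA controls. Under OVA it ranged from 1973 to 2354 in CuO 40, from 1984 to 2510 in CuO COOH 40, from 1995 to 2428 in CuO NH3 40 and from 3449 to 4294 in CuO PEG 40. In CuO COOH 40 with OVA 4 T cell markers fell. Psmb8, Psmb9 and Psmb10 had log2 fold changes of 0.08, -0.31 and -0.41 there and were not called. Relative to PBS controls, the immunoproteasome median of its samples ranged from -0.15 to 0.18, and that of OVA controls from 0.35 to 0.65. Of 7 B cell markers 4 fell in CuO 40, 1 in CuO COOH 40 and 3 in CuO NH3 40, and limma called 0 in OVA controls (0 at an unadjusted p below 0.05). Of 8 endothelial markers 6, 7 and 6 fell in these exposures and 4 in OVA controls (median -0.58). The 10 mitotic genes all rose in OVA controls and in each material at 40 μg/mouse with PBS, with medians of 1.64 in OVA controls, 2.73 in CuO, 2.58 in CuO COOH, 2.46 in CuO NH3 and 1.43 in CuO PEG. Neutrophil markers (7 of 8 measured) had medians of 2.38, 0.63, 1.79 and 0.80 in the same 4 exposures, with 5, 2, 4 and 1 risen and 1, 0, 1 and 0 fallen. Of 8 macrophage markers 4, 3, 5 and 2 rose in these exposures and 5 in OVA controls, and 1 fell in CuO NH3. Of 6 eosinophil markers, 2 rose in OVA controls and 2 fell in CuO and in CuO COOH. In CuO NH3 1 rose and 1 fell, and in CuO PEG 1 fell. The genes that rose in OVA controls were Prg2 (1.34) and Epx (0.74). In most of the 89 samples Epx was not well above background. Alveolar type 2 markers (8 genes) had 1, 1, 2 and 0 fallen and ciliated cell markers (6 genes) 3, 1, 0 and 0 risen and 1 fallen in CuO NH3. The part of any of these cells in the change of the proteasome genes was not tested.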

How the data were processed

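The study hybridised lung RNA of 89 samples to 2-colour Agilent mouse arrays (46 arrays on 6 slides), and 43 of the arrays held 2 of these samples. The authors deposited scanner output with median foreground intensity per spot and channel, unnormalized (Agilent Feature Extraction 12.0.2.2 per the file headers). Alongside it stood a table of log2 values after the authors' normalization. Its ranks followed the scanner channel of each sample (89 of 89), with a lowest rank correlation of 1. The study's methods describe quantile normalization and a ComBat correction for labelling and array effects. A correction made gene by gene would alter ranks within a sample, so no such correction is visible in that table. Groups and doses came from the sample labels.

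From the deposited intensities, log2 median foreground without background subtraction was quantile normalized over all samples. The 3671 control spots and outlier spots of 62976 were left out, and spots were averaged to 56605 probes and 32994 probes with a gene to 22911 genes, of which 22851 without a missing value were tested. One limma fit (version 3.58.1, R 4.3.3) held all 26 groups, with dye and array as fixed terms (17 residual degrees of freedom) or, between materials, dye, slide and position (50). The number of arrays limits the precision, and intervals are 95%. The study names limma with labelling and array batches, which was followed except between materials. The terms used between materials were chosen with earlier results of these data known.

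Genes were named by a rule: the 6 catalytic beta genes, the largest and smallest change of each role in CuO 40, and at most 3 at each end of other comparisons, beside counts. Of the pathway and MHC lists, the 3 largest changes at each end were named. Marker lists covered neutrophils, macrophages, T cells, B cells, eosinophils, mitosis, alveolar type 2, endothelial and ciliated cells. One gene was left out of the pathway list and is not reported here. The members and lists were chosen with earlier results of these data known. Same-numbered samples of a material at 40 μg/mouse and of PBS controls correlated from -0.08 to 0.325, so numbers were not taken as pairs. P-values measure the spread between pools of 2 RNA samples. Alternatives changed the background correction, scaling, probe summary, dim-probe filter, batch terms, replicate block, controls used, fold threshold and single samples. In the fit with array, omitting 1 sample also takes the weight from the other sample on its array. Omitting either sample of an array therefore gives the same fold changes, and such omissions are not independent. The 3 samples alone on an array add nothing to fold changes in that fit. The fits were tested on simulated data.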

Additional observations from a re-analysis of the deposited data

Results flagged for a closer look

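Of 80 groups of 4 to 10 values tested, 7 held a sample far from the others of its group by Dixon's criterion, and chance gives about 1 in 20. Psmb10 in OVA sample 2 had a log2 level of 13.92, with the nearest other OVA control at 14.08. The same sample was lowest for Psmc1, at 13.79 against 13.97. Psmb6 in PBS sample 4 was highest of its group, at 13.39 against 13.29. In CuO NH3 at 10 μg/mouse, Psma2 stood at 13.75 in sample 3 against 13.68, and the median over the constitutive subunit genes was 0.23 above the mean of PBS controls in sample 2 against 0.12. Psmb11, which is at background, stood at 6.10 in OVA sample 5 against 5.72 and at 5.44 in CuO PEG 10 sample 3 against 5.74.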

How the results depend on the processing

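Of the counts recomputed under alternatives that keep all samples, 93 stayed within 1.5 times the value given above and 45 moved further. The cause was not tested. Genes higher at 40 μg/mouse with PBS numbered 3 for CuO, 3 for CuO COOH, 9 for CuO NH3 and 0 for CuO PEG with array as a random block. They numbered 3 for CuO COOH and 0 for CuO PEG with dye, slide and position, 11 for CuO NH3 and 0 for CuO PEG with 75th percentile scaling, and 10 for CuO COOH and 20 for CuO NH3 with no fold threshold. CuO PEG had 0 with normexp, with the brightest probe and with controls of the same slides. Genes higher in OVA controls numbered 1 with the random block, 1 with slide and position, and 8 with no fold threshold. Genes lower at 40 μg/mouse with PBS, 6 over the 4 materials, numbered 0 with 75th percentile scaling. Calls at 40 μg/mouse with OVA, 4 in the fit above, numbered 2 with normexp, 0 with 75th percentile scaling and 11 with no fold threshold. Calls at the lower doses with PBS, 6 above, numbered 2 with 75th percentile scaling, 3 with the random block and 2 with slide and position. Calls between CuO PEG and CuO, 5 above, numbered 8 with the random block, 2 with dye and array and 17 with no fold threshold, and those of the other materials against CuO, 0 above, numbered 2 with the random block. Calls between doses, 5 above, numbered 0 with 75th percentile scaling, 8 with loess, 9 without dim probes, 9 with the deposited table, 11 with the random block, 11 with slide and position and 12 with no fold threshold.

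Same-numbered samples of a material at 40 μg/mouse and of PBS controls correlated from -0.08 to 0.325 in their deviations from the group means, not all above 0.1, so the numbers were not taken as pairs, and other groups were not checked. A replicate block gave 2 genes higher in CuO COOH 40, 11 in CuO NH3 40, 4 in CuO PEG 40 and 1 in OVA controls, 3 lower calls, 15 calls at 40 μg/mouse with OVA, 13 at lower doses with PBS, 20 at lower doses with OVA, 8 between CuO PEG and CuO, 2 between the other materials and CuO, and 11 between doses. Scaling by the 75th percentile moved the share of all calls that were higher from 58.1% to 71.9% in CuO COOH 40, from 55.6% to 66.3% in CuO NH3 40, from 58.5% to 70.7% in CuO COOH 40 with OVA, from 61.6% to 100% in CuO PEG 40 with OVA (1 call in all, against 90 higher and 56 lower) and from 45.9% to 35% for CuO PEG against CuO.

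Without 1 sample at a time, genes higher numbered 0 to 11 in CuO 40, 4 to 7 in CuO COOH 40, 3 to 8 in CuO NH3 40 (8 without CuO NH3 40 sample 1 or PBS sample 5), 0 to 1 in CuO PEG 40 (0 without CuO PEG 40 sample 1 or 2 or PBS sample 3 or 5) and 1 to 2 in OVA controls (1 without PBS sample 2 or OVA sample 3). Lower calls numbered 3 to 6 (3 without CuO 40 sample 2 or PBS sample 3). Calls numbered 1 to 6 at 40 μg/mouse with OVA (1 without CuO NH3 40 + OVA sample 1 or OVA sample 5), 1 to 7 at lower doses with PBS (1 without PBS sample 3, 3 without CuO 10 sample 2 or 3, CuO NH3 10 sample 4 or CuO PEG 10 sample 4), 0 to 0 at lower doses with OVA, 0 to 1 between challenges (1 without CuO 40 + OVA sample 2), 3 to 6 between CuO PEG and CuO (3 without CuO 40 sample 2, CuO PEG 40 sample 3, or sample 1 of either with OVA), 0 to 0 between the other materials and CuO, and 3 to 10 between doses (3 without CuO NH3 2.5 + OVA or CuO PEG 2.5 + OVA sample 3, 8 to 10 without CuO 40 sample 1, CuO NH3 40 + OVA sample 2 or 3, or CuO 40 + OVA sample 2). The same omissions were repeated with slide and position in place of array, which was added once the data had been seen, and the ranges were 3 to 10, 3 to 4, 4 to 6, 0 to 0, 1 to 1, 4 to 6, 3 to 6, 1 to 3, 0 to 0 and 0 to 2 in the order from CuO 40 to the challenges, and 9 to 13 between doses.

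Of the values of named genes under alternatives that keep all samples, 417 kept their direction and their side of the threshold, 34 lost and 15 gained the call, and 23 turned. In CuO 40, Psma2 was 0.35 with 75th percentile scaling and 0.091 with loess, and Psma8 0.35 with the former. With array as a random block Psmb3 was -0.10, Psmb6 -0.0019, Psmb11 -0.090, Psmc1 -0.21 and Psmd4 -0.15, and Psmd4 was -0.11 with the brightest probe. With slide and position Psmb11 was -0.092 and Psmc1 -0.036, with the replicate block -0.052 and -0.056, and Psmb11 was -0.036 with controls of the same slides. Psmb5 in CuO PEG against CuO with OVA was 0.24 with the random block and 0.23 with the replicate block. Psmb8 in CuO NH3 40 was 0.089 with the replicate block. In CuO PEG 40, Psmb9 and Psmb10 were 0.094 and 0.25 with 75th percentile scaling, 0.097 and 0.048 with the replicate block, and 0.070 and 0.12 with controls of the same slides. Without 1 sample at a time, values in CuO 40 ranged from -0.55 (without CuO 40 sample 2) to 0.039 (without PBS sample 1) for Psma2, from -0.70 to 0.0047 for Psma8, from -0.067 to 0.22 for Psmb3 and from -0.44 (without CuO 40 sample 2) to 0.17 for Psmc1. Psmb8 in CuO COOH 40 ranged from -0.23 to 0.20, and in CuO PEG 40 Psmb9 ranged from -0.19 to 0.13 and Psmb10 from -0.11 to 0.00037.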
